A study of Mus musculus with 16 samples.

Results

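The genes described here break down heme and handle iron. They were measured in RAW264.7, a line of mouse macrophages that grew out of a leukemia. Members were chosen by name, as the rows of the deposited gene table whose symbol is Hmox1, Blvra, Blvrb, Fth1, Ftl1, Slc40a1, Tfrc, Slc11a1, Slc11a2 or Ireb2. All 10 symbols were found among 21965 gene rows, each had at least 10 counts in every one of the 16 libraries, and all 10 were among the 11319 genes tested. RNA was sequenced from 4 groups of 4 libraries. The cells of 1 group received oxidized low-density lipoprotein (oxLDL, 50 µg/ml, the modified lipoprotein that turns macrophages into foam cells) together with tirzepatide (100 nmol/ml as the labels give it, an agonist of the GIP and GLP-1 receptors used against diabetes and obesity). A second group received oxLDL alone, another tirzepatide alone, and the control cells received culture medium as vehicle. All groups are the same unmodified cell line, the treatment time is not given in the sources used here, and the labels do not say that the libraries came from separate cultures, so each p-value below measures only the spread between these libraries.

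As background, heme oxygenase opens the heme ring and releases biliverdin, carbon monoxide and iron, and biliverdin reductases turn biliverdin into bilirubin. The freed iron is stored in ferritin, a shell of heavy and light chains, or leaves the cell through ferroportin, while new iron enters with transferrin through the transferrin receptor or is moved across membranes by divalent metal transporters. Macrophages are known for recycling iron from old red cells, and several of these transcripts carry iron-responsive elements, hairpins that iron regulatory proteins bind when iron is scarce. Binding at the front of a message blocks its translation, and binding behind the coding part protects the message from decay.

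The hairpins are shown because they place 4 of the 10 transcripts on the opposite arms of that control. A search of the annotated untranslated regions of mouse transcripts (GENCODE release for build GRCm38, transcript strand only) looked for a C, any 5 bases, the loop CAGTGN and 5 bases that pair with the 5 before the loop. Each sequence below is 27 bases long, runs 5′ to 3′ on the transcript strand, and has the loop of 6 bases in capitals.
Fth1, 5′ UTR, chr19:9982733-9982759, plus strand: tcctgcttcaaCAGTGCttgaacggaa
Ftl1, 5′ UTR, chr7:45459780-45459806, minus strand: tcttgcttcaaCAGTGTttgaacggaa
Slc40a1, 5′ UTR, chr1:45925466-45925492, minus strand: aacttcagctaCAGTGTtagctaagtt
Tfrc, 3′ UTR, chr16:32631220-32631246, plus strand: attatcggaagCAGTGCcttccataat
Tfrc, 3′ UTR, chr16:32631599-32631625, plus strand: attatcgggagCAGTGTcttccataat
Tfrc, 3′ UTR, chr16:32631664-32631690, plus strand: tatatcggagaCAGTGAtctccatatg
Tfrc, 3′ UTR, chr16:32631711-32631737, plus strand: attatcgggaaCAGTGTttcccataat
Of 22044 genes with an annotated untranslated region, 0.141% had a match in the 5′ region and 0.653% in the 3′ region. The other 6 genes had no match to these letters. The search misses hairpins with another loop or an imperfect stem, so a gene without a match may still carry an element. A gene with matches may likewise carry more than those printed. A match is a description of the letters and says nothing about binding in these cells.

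The libraries held 15877270 to 17336020 counts each. Of 16 pancreatic acinar genes, which the line should lack, the summed level was 303 TPM in control 1 and 160.3 TPM in control 2, against 7.16 to 62.3 TPM in the other 14 libraries, and its part in the results below was not tested. The 10 erythroid genes summed to at most 3.49 TPM in any library, with Hbb-bt, Slc4a1 and Ahsp at 0 in all of them. One combination library, labelled replicate 2 of oxLDL with tirzepatide and called combination library 2 below, stood apart from the other 3 of its group in several of the genes described here. The tests named below on that group are therefore given with and without it. The library was singled out by the values of these same genes. The smaller errors and p-values without it partly follow from that choice and are no independent check.

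Heme oxygenase 1 and the light chain of ferritin dominated the set in amount. In control cells Ftl1 averaged 6799 ± 453 TPM (SD, n = 4) and Hmox1 411 ± 19.2 TPM, ranks 13 and 255 of all rows. Slc11a1 followed at 130.5 ± 7.71 TPM, then Blvrb, Blvra, Slc11a2, Ireb2 and Tfrc between 93.2 and 26.4 TPM. Fth1 at 9.48 ± 2.89 TPM and Slc40a1 at 4.56 ± 0.40 TPM were the lowest of the 10. The estimates of both ferritin genes are uncertain, as described below, and so is the rank of Fth1.

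**Figure D1:**
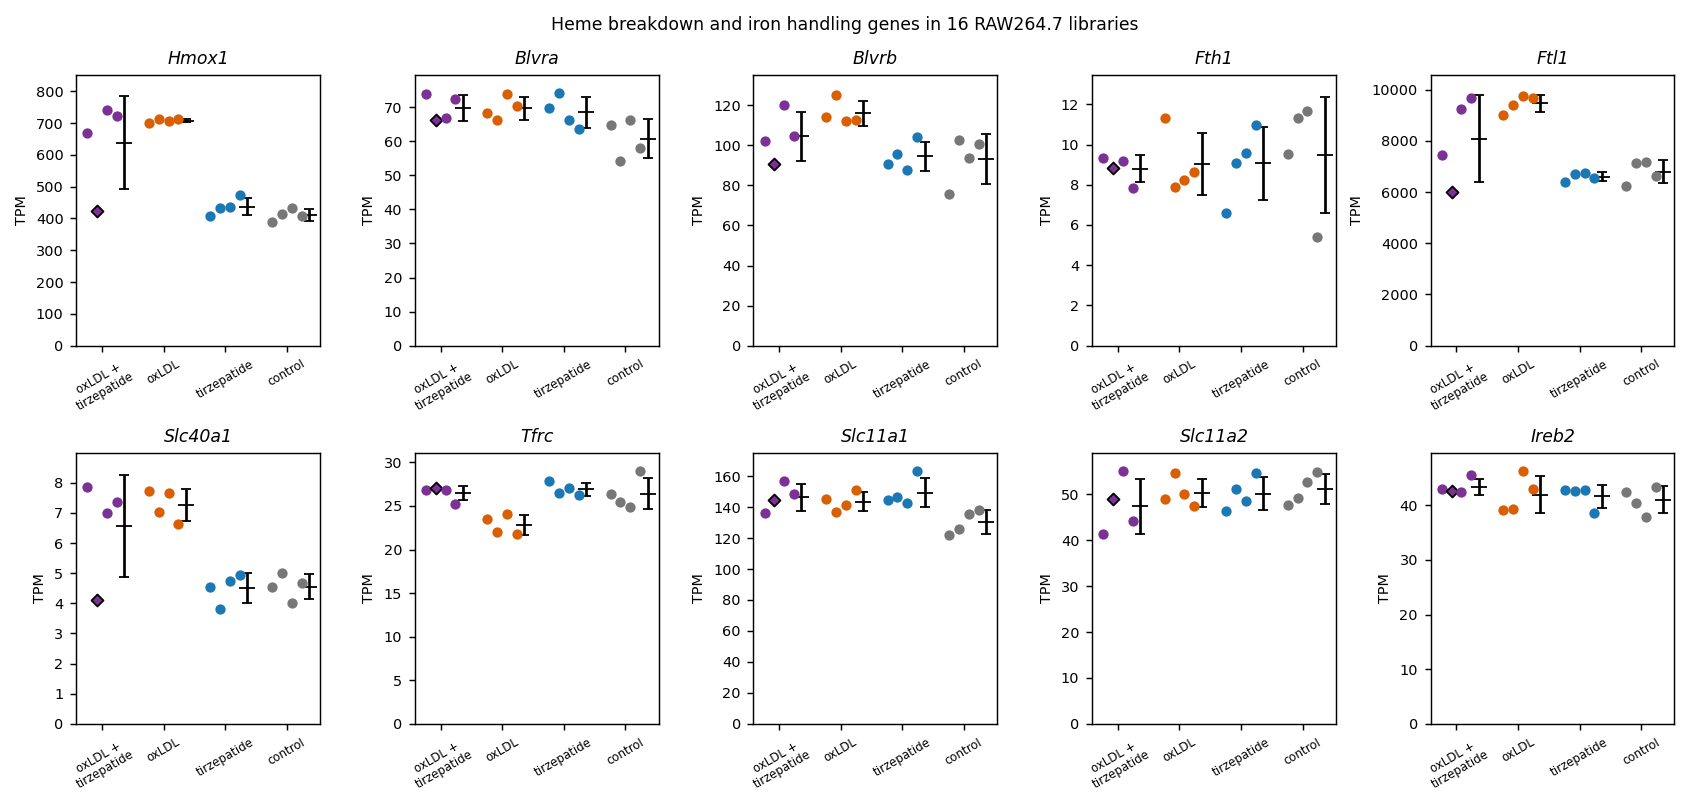
TPM of the 10 genes in each of 16 libraries, by group from left to right: oxLDL with tirzepatide, oxLDL, tirzepatide and control. Points are libraries in order of their number, the black bar is the mean ± SD of 4 libraries, and the outlined diamond is combination library 2, which lies with the tirzepatide and control libraries for Hmox1 and Slc40a1 while the other 3 combination libraries lie with oxLDL.

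With oxLDL alone, the heme-degrading enzyme, the ferritin light chain, the iron exporter and a biliverdin reductase were higher than in control cells, and the transferrin receptor was lower. These 5 of the 10 genes passed the test (edgeR's quasi-likelihood test, Benjamini-Hochberg adjusted p under 0.05 over all genes tested), 4 higher and 1 lower. Over all 11319 genes tested 4.54% passed in this comparison, 2.49% higher and 2.05% lower. The members were chosen with earlier results of these data known, so these shares cannot show an excess among them. The median log2 change was 0.16 over the 10 genes and -0.00206 over all genes tested. In the same 5 genes the oxLDL and control ranges of TPM did not overlap, which held for 4.86% of all genes in the higher and 3.44% in the lower direction.

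Hmox1, whose product carries out the first step of heme breakdown, had 699.7, 712, 707 and 712 TPM in oxLDL libraries, against 388, 415, 434 and 407 TPM in control libraries. The lowest oxLDL library stood far above the highest control library. The log2 change was 0.78 ± 0.10 (SE), or 1.71-fold, with an adjusted p of 1.3e-05 by edgeR. The spread within oxLDL was the smallest of the 4 groups for this gene, at 5.80 TPM (SD) around a mean of 708.

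Ftl1, the light chain of ferritin, had 9014, 9417, 9748 and 9688 TPM in oxLDL libraries, against 6231, 7154, 7175 and 6637 TPM in control libraries. All oxLDL libraries were above all control libraries, and the transcript took 0.441% to 0.468% of all counts with oxLDL, against 0.313% to 0.354% in control. Its log2 change was 0.47 ± 0.08 (edgeR adjusted p = 0.000827).

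Slc40a1, which encodes ferroportin, the known exporter of iron from the cell, had 7.73, 7.03, 7.66 and 6.64 TPM in oxLDL libraries, against 4.54, 4.99, 4.02 and 4.67 TPM in control libraries. The groups did not overlap although the row holds few reads, 112 to 217 counts over the 16 libraries. The log2 change was 0.67 ± 0.15, or 1.59-fold (edgeR adjusted p = 0.00676). Of the 3 genes printed above with a hairpin in the 5′ UTR, Ftl1 and Slc40a1 passed the test, where 4.54% of all genes tested did. Fth1, described below, did not pass, and its estimate is uncertain. Whether the hairpins bear on these levels was not tested.

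Tfrc encodes the receptor that brings in transferrin-bound iron and has the 4 matches in the 3′ UTR printed above. It had 23.5, 21.96, 24.1 and 21.8 TPM in oxLDL libraries, against 26.4, 25.5, 24.9 and 29.0 TPM in control libraries. The highest oxLDL library was only narrowly below the lowest control library. This gave a log2 change of -0.20 ± 0.06 (edgeR adjusted p = 0.0319). Without control 1, control 4, oxLDL 1, oxLDL 2 or oxLDL 4 the adjusted p was between 0.0649 and 0.0874, and without both control 1 and control 2 it was 0.115 with a log2 change of -0.20.

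Blvrb, a reductase of biliverdin and flavins, had 114, 125, 112 and 113 TPM in oxLDL libraries, against 75.8, 102, 93.7 and 101 TPM in control libraries. The lowest value of the 8 came from control 1, the library with the most acinar RNA. Blvrb had a log2 change of 0.30 ± 0.08 (edgeR adjusted p = 0.0245). Without control 1, control 3, oxLDL 1 or oxLDL 2 the adjusted p was between 0.0552 and 0.107, and without control 1 and control 2 together the log2 change was 0.24 with an adjusted p of 0.124.

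Blvra, the other biliverdin reductase, averaged 69.7 ± 3.27 TPM with oxLDL and 60.8 ± 5.63 TPM in control (SD, n = 4 each), a log2 change of 0.20 ± 0.07 that did not pass the test (edgeR adjusted p = 0.114). Its value passed only without control 1 (adjusted p = 0.047). Slc11a1, the metal transporter of phagosomes, averaged 143 ± 6.06 TPM with oxLDL and 130.5 ± 7.71 TPM in control (log2 change 0.13 ± 0.05, edgeR adjusted p = 0.12). Slc11a2, the divalent metal transporter of endosomes, had a log2 change of -0.10 ± 0.05. Ireb2, which encodes iron regulatory protein 2, a binder of the hairpins printed above, had a log2 change of -0.01 ± 0.05, with 39.2 to 46.4 TPM in oxLDL libraries and 37.8 to 43.3 TPM in control libraries.

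Fth1, the heavy chain of ferritin that oxidizes iron for storage, had 11.3, 7.88, 8.25 and 8.65 TPM in oxLDL libraries, against 9.52, 11.3, 11.7 and 5.39 TPM in control libraries. The groups overlapped fully, and the log2 change of -0.06 ± 0.21 carried the largest error of the 10 genes in this comparison. The row held only 65 to 148 counts in a library, against 49126 to 79276 for Ftl1. Counts and TPM of the same row, set against those of Hmox1, imply the transcript length used for the estimate: it was 968 nucleotides for Ftl1 in every library, the length of its main transcript, but ranged between 1008 and 1494 for Fth1. A varying length was not particular to Fth1, as it ranged between 2704 and 3237 for Slc11a2 and between 4227 and 4705 for Tfrc. For Slc40a1 it stayed at 3370. Both ferritin genes have near-identical copies elsewhere in the genome, so their estimates are uncertain. Of the other ferritin rows in the table, Ftl1-ps1 reached 8.61 TPM and the others were at 0. What share of Fth1 reads went elsewhere was not tested.

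**Figure D2:**
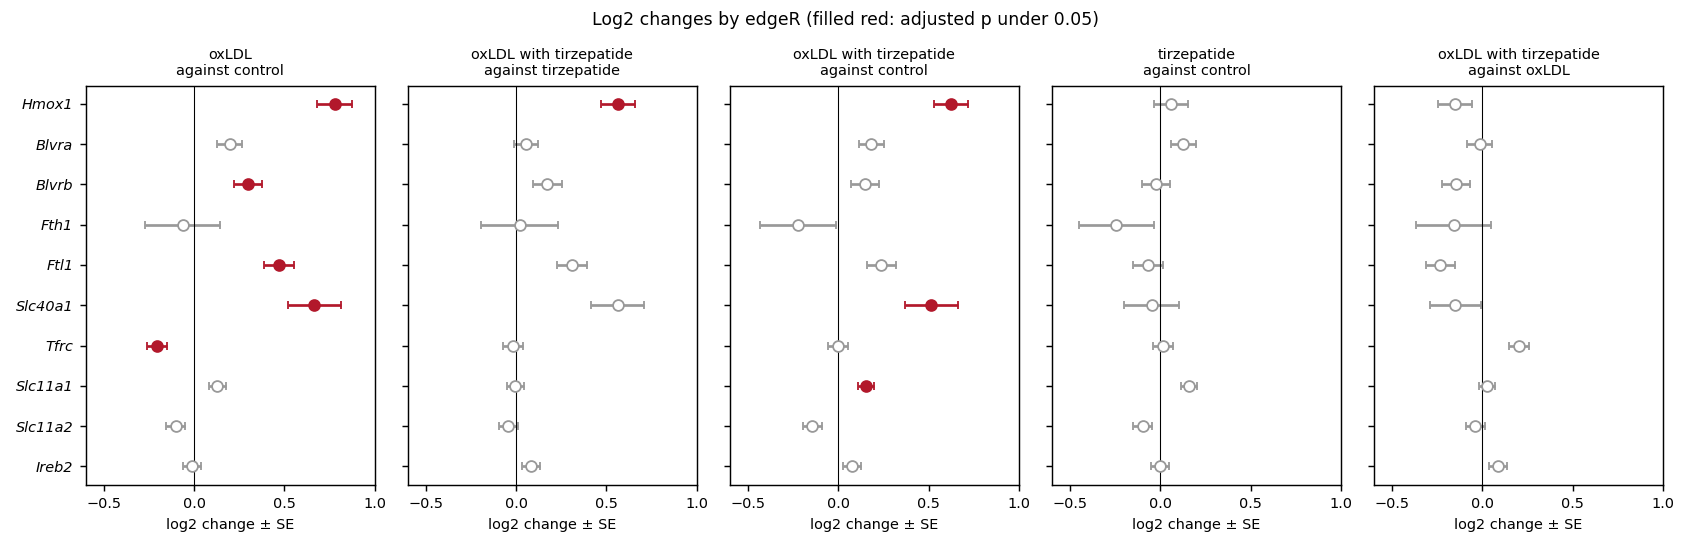
Log2 changes of the 10 genes with their standard errors, from edgeR, in 5 comparisons of 4 libraries each; filled red points had an adjusted p under 0.05 over all genes tested. Hmox1 is filled in each of the 3 comparisons of a group with oxLDL against a group without it, and no gene is filled in the tirzepatide-alone comparison or in oxLDL with tirzepatide against oxLDL.

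Tirzepatide alone left none of the 10 genes past the threshold. By edgeR the count was 0, where 4.08% of all genes tested passed, 2.34% higher and 1.74% lower. At an unadjusted p under 0.05 there was 1 of the 10, against 18.6% of all genes, and DESeq2 called 1 of the 10, against 5.84% of all genes. It was Slc11a1 in both cases, with 145, 147, 143 and 163 TPM in tirzepatide libraries, against 122, 126, 136 and 138 TPM in control libraries. The ranges did not overlap, as for 7.27% of all genes in that direction. Its log2 change was 0.16 ± 0.05, with an adjusted p of 0.0502 by edgeR and 0.0226 by DESeq2.

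The enzymes, ferritin light chain and exporter that were higher with oxLDL lay close to control with tirzepatide alone. Hmox1 averaged 437 ± 26.3 TPM with tirzepatide and 411 ± 19.2 TPM in control (SD, n = 4 each), a log2 change of 0.06 ± 0.10. For Ftl1 the log2 change was -0.07 ± 0.08, for Slc40a1 -0.05 ± 0.15 and for Tfrc 0.01 ± 0.06. All 4 had overlapping ranges, and their edgeR adjusted p-values were between 0.713 and 0.933.

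When oxLDL and tirzepatide were given together, Hmox1 was higher than with tirzepatide alone in 3 of 4 libraries. It had 668, 425, 739.9 and 722 TPM in oxLDL with tirzepatide, against 409, 431, 435 and 472 TPM with tirzepatide. Combination library 2 lay inside the tirzepatide range and the other 3 lay above it. The log2 change was 0.57 ± 0.10 (edgeR adjusted p = 0.00234), the only call among the 10 genes, where 1.54% of all genes tested passed, 0.76% higher. Without combination library 2 the log2 change was 0.72 ± 0.04.

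For the exporter and the ferritin light chain, the result also moved when combination library 2 was left out. Slc40a1 had 7.85, 4.095, 6.99 and 7.36 TPM in oxLDL with tirzepatide, against 4.53, 3.83, 4.73 and 4.95 TPM with tirzepatide, a log2 change of 0.56 ± 0.15 (edgeR adjusted p = 0.0511). Ftl1 had 7451, 5986, 9245 and 9679 TPM in oxLDL with tirzepatide, against 6409, 6724, 6748 and 6548 TPM with tirzepatide, a log2 change of 0.31 ± 0.08 (edgeR adjusted p = 0.0574). In both, combination library 2 was the low value, and for Ftl1 it was the lowest of all 16 libraries. Without it, Slc40a1 changed by 0.73 ± 0.12 (adjusted p = 0.000238) and Ftl1 by 0.42 ± 0.05 (adjusted p = 2.13e-05), so that 3 of the 10 genes passed, where 3.89% of all genes did. Both also passed without control 1, with adjusted p-values of 0.0378 for Slc40a1 and 0.0373 for Ftl1. With combination library 2 kept, they passed by edgeR without a filter on low counts too (adjusted p 0.00992 and 0.000756). The same held without controls 1 and 2 together (0.0414 and 0.0396).

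Against control, oxLDL with tirzepatide had 3 of the 10 genes called, all higher, where 8.94% of all genes tested passed, 4.69% higher. Hmox1 had a log2 change of 0.62 ± 0.10 (edgeR adjusted p = 0.000213), and 0.77 ± 0.04 without combination library 2. Slc40a1 had a log2 change of 0.52 ± 0.15 (adjusted p = 0.0294), and 0.68 ± 0.12 without that library, where the adjusted p was 0.000393. Its call was lost without control 3, control 4 or combination library 1, 3 or 4, with adjusted p-values between 0.0599 and 0.131. Slc11a1 had 136, 144, 157 and 148 TPM in oxLDL with tirzepatide, against 122, 126, 136 and 138 TPM in control, a log2 change of 0.15 ± 0.05 (adjusted p = 0.0377), which was 0.15 ± 0.05 without combination library 2 as well.

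The Slc11a1 groups overlapped, and its adjusted p was between 0.05005 and 0.122 without any single control, without combination library 2, 3 or 4, without tirzepatide 1 or 2, or without oxLDL 2. Blvra did not pass (log2 change 0.18 ± 0.07, adjusted p = 0.106, and 0.21 ± 0.07 without combination library 2, adjusted p = 0.0805), although its combination libraries, at 73.9, 66.3, 67.0 and 72.4 TPM, were all above the control libraries, at 64.8, 54.3, 66.2 and 58.0 TPM. Such a separation was found in 5.71% of all genes in that direction. Leaving out control 1 brought Blvra past the threshold (adjusted p = 0.0353). Without combination library 2, Ftl1 passed with a log2 change of 0.35 ± 0.05 (adjusted p = 0.000164) and Slc11a2 with -0.19 ± 0.05 (adjusted p = 0.0294), while Slc11a1 did not (adjusted p = 0.0608); the share of all genes that passed was again 8.94%.

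Adding tirzepatide to oxLDL, the comparison that asks whether the drug altered the response, gave no call among the 10 genes. Only 4 of all genes tested passed, or 0.0353%. By edgeR 2 of the 10 genes had an unadjusted p under 0.05, against 10.1% of all genes, and DESeq2 called 0, against 0.186% of all genes. The first of these was Tfrc, with 26.9, 27.0, 26.9 and 25.2 TPM in oxLDL with tirzepatide, against 23.5, 21.96, 24.1 and 21.8 TPM with oxLDL. All 4 combination libraries were above all 4 oxLDL libraries, as in 3.08% of all genes in that direction.

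The Tfrc log2 change was 0.20 ± 0.06 (edgeR adjusted p = 0.272), and 0.19 ± 0.06 without combination library 2. The second was Ftl1, with a log2 change of -0.23 ± 0.08 (edgeR adjusted p = 0.361), and -0.12 ± 0.06 without that library. Hmox1 had -0.15 ± 0.09 with all libraries and -0.01 ± 0.04 without it. Slc40a1 had -0.15 ± 0.14 with all libraries and 0.02 ± 0.11 without it. The direction of the last value thus rested on 1 library.

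The interaction, which tests whether the effect of oxLDL differed with and without tirzepatide, gave 0 calls among the 10 genes by edgeR, where 0.0707% of all genes tested passed, and 0 by DESeq2, where 0.512% did. At an unadjusted p under 0.05 there was 1, against 10.3% of all genes. It was Tfrc, with a log2 interaction of 0.19 ± 0.08 (edgeR adjusted p = 0.41), and 0.18 ± 0.08 without combination library 2. For Hmox1 the interaction was -0.21 ± 0.13 with all libraries and -0.06 ± 0.06 without combination library 2. Ordered by mean, Hmox1 stood at 708 ± 5.80 TPM in oxLDL, 639 ± 146 TPM in oxLDL with tirzepatide, 437 ± 26.3 TPM in tirzepatide and 411 ± 19.2 TPM in control (SD, n = 4 each). Neither the 2 groups with oxLDL nor the 2 without it differed from each other past the threshold, and 3 of the 4 comparisons across them were tested and passed.

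**Figure D3:**
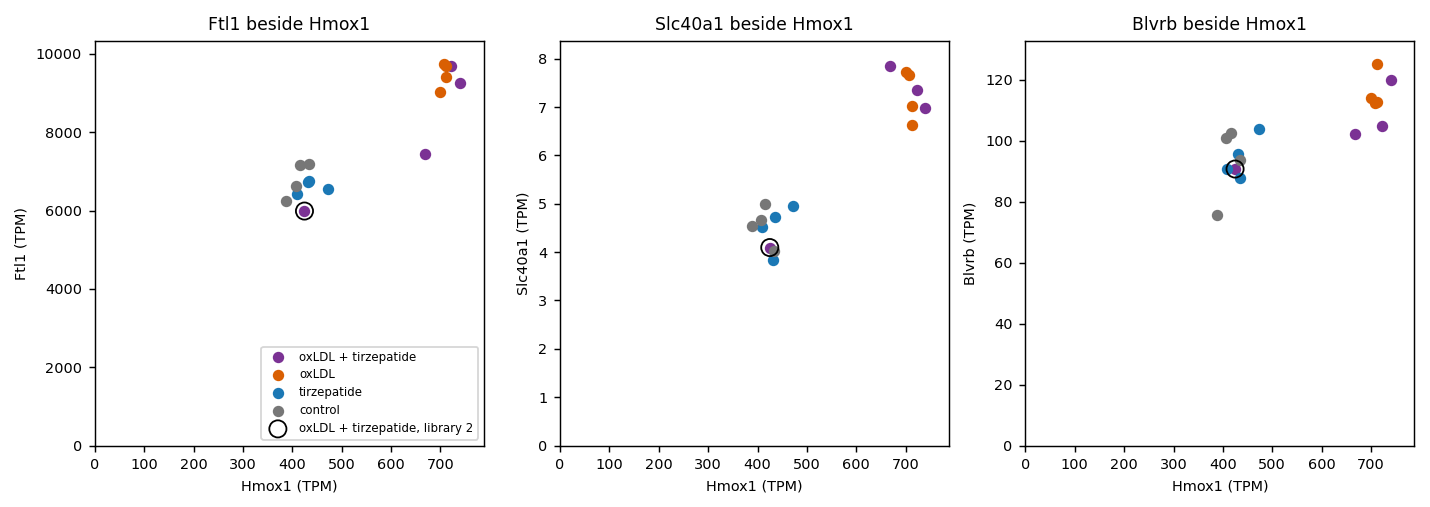
TPM of Ftl1, Slc40a1 and Blvrb in each of 16 libraries against the TPM of Hmox1 in the same library, coloured by group, with combination library 2 circled. The circled library lies at 425 TPM of Hmox1, within the range of the tirzepatide libraries for Slc40a1 and Blvrb and below all other libraries for Ftl1. The other combination libraries have 668 TPM of Hmox1 or more and spread more widely than the oxLDL libraries for Ftl1 (7451 to 9679 TPM) and Blvrb (102 to 120.1 TPM).

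Over the 16 libraries, the genes whose pattern was most like that of Hmox1 were ranked by the root mean square difference of log2 normalized counts, each centred on its own mean. The nearest of 11318 genes were Odc1 (difference 0.09), the ornithine decarboxylase of polyamine synthesis, Clec4e (0.12), a lectin receptor, Smox (0.13), the spermine oxidase, Slc40a1 (0.13) and Clec4d (0.13), another lectin receptor. Odc1 averaged 4647 ± 1361 TPM in oxLDL with tirzepatide, 5332 ± 242 TPM in oxLDL, 2936 ± 142 TPM in tirzepatide and 2869 ± 151 TPM in control, with 2685 TPM in combination library 2. Ftl1 ranked 12 and Blvrb 67, whereas Tfrc ranked 8800 and Fth1 9396. The libraries share their groups and combination library 2, so the ranks describe these 16 libraries.

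Further genes of heme and iron metabolism were taken from 5 lists, also chosen with earlier results of these data known. With oxLDL against control, 2 of 9 tested genes of heme uptake and transport were higher and none lower, where 2.49% of all genes tested were higher and 2.05% lower. Slc48a1, which moves heme out of phagolysosomes, had 184, 191, 176 and 192 TPM in oxLDL libraries, against 130.1, 140, 148 and 146 TPM in control libraries (log2 change 0.39 ± 0.06, edgeR adjusted p = 0.000205). Its groups did not overlap. Flvcr1, a heme exporter, averaged 26.4 ± 0.60 TPM with oxLDL and 23.2 ± 2.03 TPM in control (log2 change 0.22 ± 0.06, adjusted p = 0.018), but lost its call without control 2, control 3, oxLDL 2 or oxLDL 4 (adjusted p 0.0532 to 0.0898) or without controls 1 and 2 together (0.0683).

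Slc48a1 followed Hmox1 in the groups with both agents too. It had 177, 141, 184 and 185 TPM in oxLDL with tirzepatide, against 138, 140, 132 and 146 TPM with tirzepatide, with combination library 2 again inside the lower range. Its log2 change was 0.33 ± 0.06 against tirzepatide (edgeR adjusted p = 0.00486) and 0.28 ± 0.06 against control (adjusted p = 0.00494). Without combination library 2 these values were 0.41 ± 0.05 and 0.36 ± 0.05. The list's median log2 change with oxLDL against control was 0.03, close to the median of all genes.

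None of the 12 tested genes of heme synthesis and none of 24 of iron-sulfur cluster assembly passed by edgeR with oxLDL against control, where 4.54% of all genes did. The iron-sulfur gene Mms19, described below, came close (log2 change -0.16 ± 0.05, edgeR adjusted p = 0.0605). Mms19 passed by DESeq2 (adjusted p = 0.0379) and without combination library 2 (0.0392). It also passed with library number as a block (0.0435) and with a term for libraries numbered 1 and 2 against 3 and 4 (0.0417). Slc25a38, the mitochondrial glycine carrier that feeds heme synthesis, was lower in oxLDL with tirzepatide, at 11.6 ± 1.54 TPM, against 15.5 ± 1.40 TPM in control (log2 change -0.35 ± 0.11, edgeR adjusted p = 0.0401, and -0.39 ± 0.12 without combination library 2). It averaged 12.7 ± 0.86 TPM with oxLDL and 12.5 ± 0.83 TPM with tirzepatide, each with a log2 change of -0.25 against control that did not pass (adjusted p 0.205 and 0.199). The Slc25a38 call was lost without control 2, control 3 or combination library 1, 3 or 4 (adjusted p 0.0589 to 0.141). Of 18 tested genes of other iron transport, storage and control, 1 was higher with oxLDL, where 2.49% of all genes were. It was Slc39a14, a transporter of zinc and iron, at 56.9 ± 2.61 TPM with oxLDL and 48.1 ± 6.97 TPM in control (log2 change 0.20 ± 0.05, adjusted p = 0.00822). Its control libraries with the most acinar RNA were its lowest, 40.2 TPM in control 1 and 44.6 TPM in control 2. Without both the adjusted p was 0.137, and without control 2 alone it was 0.0526. In oxLDL with tirzepatide against control Flvcr1 (log2 change 0.18 ± 0.06, adjusted p = 0.0432) and Slc39a14 (0.16 ± 0.05, adjusted p = 0.0294) were higher as well. Without combination library 2 the log2 changes were 0.18 ± 0.06 for Flvcr1 (adjusted p = 0.064) and 0.16 ± 0.05 for Slc39a14 (adjusted p = 0.0534). Leaving out single libraries ended the Flvcr1 call in 13 of 16 cases and the Slc39a14 call in 5, namely control 2, control 3 and combination libraries 2, 3 and 4 (adjusted p 0.0534 to 0.123).

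Of 10 tested transcription factors of heme and iron genes 1 passed with oxLDL against control, where 2.05% of all genes were lower. Hif1a, which directs the response to low oxygen, was lower with oxLDL, at 947 ± 29.9 TPM, against 1131 ± 33.5 TPM in control (log2 change -0.26 ± 0.04, edgeR adjusted p = 0.000193). Its groups did not overlap. It was also lower in oxLDL with tirzepatide against control (log2 change -0.18 ± 0.04, adjusted p = 0.00544), but not with only these groups in the fit (adjusted p = 0.0622). Without combination library 2 that change was -0.23 ± 0.04, and the one against tirzepatide, -0.12 ± 0.04 over all libraries (adjusted p = 0.131), was -0.16 ± 0.04 and passed (adjusted p = 0.00776). Nfe2l2, the known activator of Hmox1 and ferritin genes, averaged 83.5 ± 4.36 TPM with oxLDL and 81.5 ± 2.67 TPM in control, and Bach1, their known repressor, 14.6 ± 0.82 TPM with oxLDL and 14.3 ± 1.204 TPM in control. Neither passed in any of the 6 comparisons, nor did Aco1, which encodes iron regulatory protein 1, or Ncoa4, the receptor for ferritin breakdown.

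**Figure D4:**
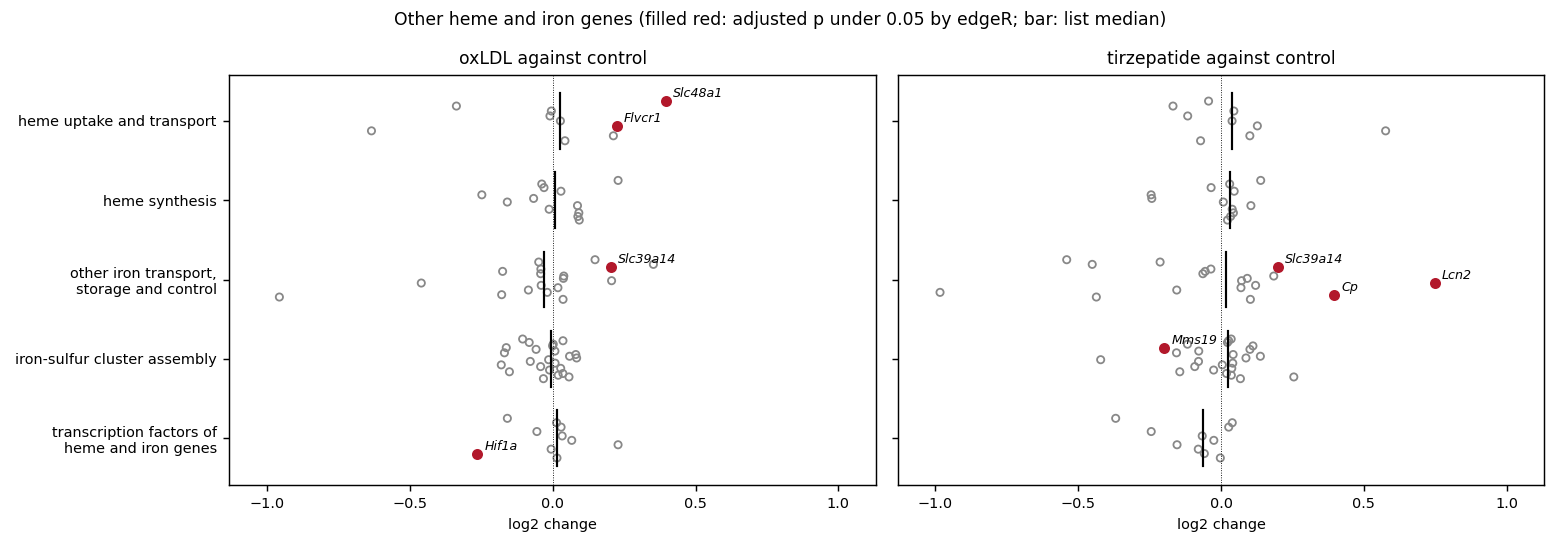
Log2 changes of the tested genes of 5 lists of heme and iron genes with oxLDL against control (left) and with tirzepatide against control (right), from edgeR with 4 libraries a group. Each point is a gene, the vertical bar is the list's median, and filled red points with names had an adjusted p under 0.05, 4 with oxLDL and 4 with tirzepatide.

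With tirzepatide against control, 3 of the 18 genes of other iron transport, storage and control were higher, where 2.34% of all genes tested were. Lcn2, a secreted binder of iron siderophores, had 632, 648, 572 and 568 TPM in tirzepatide libraries, against 389, 302, 329 and 393 TPM in control libraries (log2 change 0.75 ± 0.15, edgeR adjusted p = 0.00587). Cp, the ferroxidase ceruloplasmin, averaged 79.6 ± 8.99 TPM with tirzepatide and 57.8 ± 6.36 TPM in control (log2 change 0.40 ± 0.10, adjusted p = 0.0227). Slc39a14 averaged 57.5 ± 2.24 TPM with tirzepatide and 48.1 ± 6.97 TPM in control (log2 change 0.20 ± 0.05, adjusted p = 0.0152).

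The Slc39a14 call was lost without control 2 or tirzepatide 2 (adjusted p 0.0626 to 0.0877) and without controls 1 and 2 together (0.165). That of Cp was lost without control 2, control 3 or tirzepatide 1, 2 or 3 (adjusted p 0.0505 to 0.101) and by DESeq2 (0.057). Mms19, which delivers iron-sulfur clusters to enzymes, was lower at 33.4 ± 1.25 TPM with tirzepatide and 35.8 ± 2.51 TPM in control. Its log2 change, fitted on counts, was -0.20 ± 0.05 (edgeR adjusted p = 0.0226), and the TPM means lay closer together than that. The Mms19 call was lost without control 2, tirzepatide 1 or tirzepatide 2 (adjusted p 0.0575 to 0.0902) or without controls 1 and 2 together (0.104). With oxLDL against control its log2 change was -0.16 ± 0.05 (edgeR adjusted p = 0.0605), as given above. In the groups with both agents Lcn2 had 248, 569.7, 310 and 314 TPM in oxLDL with tirzepatide, against the 568 to 648 TPM of the tirzepatide libraries. Combination library 2 lay within the tirzepatide range and the other 3 far below it. Lcn2 had a log2 change of -0.73 ± 0.15 (adjusted p = 0.00924) and its call was lost without combination library 4 (adjusted p = 0.0651). Without combination library 2 it was -1.04 ± 0.08. Against control the Lcn2 change was 0.02 ± 0.15 over all libraries (adjusted p = 0.951) and -0.30 ± 0.08 without combination library 2 (adjusted p = 0.0228). Of the settings run, the interaction for Lcn2 passed only without combination library 2 (adjusted p = 0.0301). With oxLDL against control its log2 change was -0.46 ± 0.15, with an adjusted p of 0.0851 over all libraries and 0.000275 without that library. That library is in neither of these groups. Leaving it out alters the shared estimate of spread, and also the genes kept, the scaling and the adjustment. The change also passed with only these groups in the fit (0.000252) and without a filter on low counts (0.0018). It passed with library number as a block (0.0394) and without combination library 1 (0.0408), but in no other setting run.

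The lists also held 17 genes with too few reads to test, none above 11 counts in any library. They include Cd163 and Hp of hemoglobin clearance, the hormone gene Hamp, and Spic, a factor of iron-recycling macrophages. At this depth a change in them was not detectable.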

How the data were processed

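Poly(A) RNA of 16 RAW264.7 libraries was sequenced on an Illumina instrument, per the labels' protocols. The deposited table gives expected counts and TPM, a level per transcript length, for each gene and library. Tools listed in the submitters' processing notes are RSEM, StringTie 1.3.1, Bowtie2 2.2.8 and fastp 0.18.0, with the build GRCm39; the annotation release is not given in the sources used here. The authors' expected counts, which need not be whole, were rounded to whole numbers. Genes were kept by filterByExpr with a count minimum of 10 and scaled by TMM, and 1 model over all 16 libraries was fitted with edgeR 4.0.16 (R 4.3.3, limma 3.58.1), with p-values adjusted over all genes of a comparison. DESeq2 1.42.0 and the other alternatives are given in the closing section. TPM values are shown as the authors deposited them. The tests were tried on simulated data first.

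The members and lists were chosen with earlier results of these data known. Named were all 10 members, at most 4 called genes of each list by smallest p, and the 5 genes nearest to Hmox1; Nfe2l2, Bach1, Aco1, Ncoa4 and the untested genes were named after their values were seen. The labels do not say whether library numbers pair the libraries, so the main fit had no pairing. Of 24 pairs with the same number, 5 had deviations that correlated above 0.1. These correlations cannot settle whether a number marks a shared batch. Hairpins were read from GENCODE transcripts of GRCm38, not the authors' build. Intervals and errors cover counting and library spread only.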

Additional observations from a re-analysis of the deposited data

Results flagged for a closer look

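In 40 sets of 4 libraries, 1 for each gene and group, 3 held a library far from the other 3, where chance gives about 2. Blvrb in oxLDL 2 was the highest of its group at 125 TPM, with 112 to 114 TPM in the other 3 libraries. Tfrc in combination library 4 was the lowest of its group at 25.2 TPM, with 26.9 to 27.0 TPM in the others. Ireb2 in tirzepatide 4 was the lowest of its group at 38.5 TPM, with 42.5 to 42.8 TPM in the others. Combination library 2, left out in tests above, was not flagged for any member.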

How the results depend on the processing

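With oxLDL against control, 3 of the 10 genes were called without controls 1 and 2 (Ftl1, Hmox1 and Slc40a1; 2.67% of all genes), and 3 to 5 when single libraries were left out. Hmox1, Ftl1 and Slc40a1 were called in that comparison under every setting run. With tirzepatide against control, 1 gene, Slc11a1, was called by DESeq2, with a replicate block (6.63% of all genes), and with a term for libraries numbered 1 and 2 against 3 and 4 (5.91%), and 0 to 1 when single libraries were left out. For oxLDL with tirzepatide against tirzepatide, 2 genes were called by DESeq2 (2.72% of all genes) and with its size factors (1.61%), 3 without a filter on low counts (1.75%), with the replicate block (3.34%), with the term (2.54%) and without controls 1 and 2 (2.12%), and 1 to 3 when single libraries were left out. For oxLDL with tirzepatide against control, 1 gene was called with only the compared groups in the fit (3.69% of all genes), 4 without the filter (6.6%) and with the term (10.9%), 5 with the replicate block (1357 of 11319 genes), and 1 to 4 when single libraries were left out. For oxLDL with tirzepatide against oxLDL and for the interaction the count stayed at 0 in every case. The labels give no pairing by number, and 6 of 16 libraries correlated best with their own number. Whether the replicate block reflects a shared batch therefore remains unknown. Without controls 1 and 2 the sign turned for Fth1 with oxLDL against control (0.086) and in the interaction (-0.064), Ireb2 with oxLDL (0.033) and with tirzepatide (0.041) against control, Slc40a1 with tirzepatide against control (0.055) and Tfrc in oxLDL with tirzepatide against control (0.0067), none past the threshold in any case. The cause of these changes was not tested. Leaving out single libraries also turned signs, again for changes not called: for oxLDL with tirzepatide against oxLDL, Blvra ranged between -0.045 and 0.015 and Slc40a1 between -0.26 and 0.019. With tirzepatide against control Blvrb ranged between -0.10 and 0.018, Ireb2 between -0.049 and 0.032, Slc40a1 between -0.11 and 0.016 and Tfrc between -0.019 and 0.055. With oxLDL against control Fth1 ranged between -0.27 and 0.052 and Ireb2 between -0.056 and 0.0197. For oxLDL with tirzepatide against tirzepatide Fth1 ranged between -0.12 and 0.20, Slc11a1 between -0.0297 and 0.034 and Tfrc between -0.061 and 0.0066. Against control Tfrc ranged between -0.033 and 0.0304. In the interaction Fth1 ranged between -0.0497 and 0.29 and Slc40a1 between -0.21 and 0.069. Of the calls in the other heme and iron genes for oxLDL with tirzepatide against control, those of Flvcr1, Slc25a38 and Slc39a14 were also lost with only the compared groups in the fit (adjusted p 0.13, 0.103 and 0.0928) and without controls 1 and 2 (0.08, 0.0735 and 0.198), and those of Flvcr1 and Slc25a38 without the filter (0.0596 and 0.0644). Few counts limit Fth1 and Slc40a1, the rows with the fewest. For Fth1 the assignment of reads among near-identical copies is uncertain as well and was not tested.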
